A study of Mus musculus with 12 samples.

Results

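The 7 genes Zfp36, Zfp36l1, Zfp36l2, Khsrp, Btg1, Btg2 and Elavl1 encode proteins that control how long messenger RNAs last. They were taken by symbol from a deposited table of normalized levels, in which each has 1 RefSeq entry, and are 7 of the 19649 genes named there. AU-rich elements are stretches of A and U in the 3′ untranslated region (3′ UTR) of many short-lived mRNAs, among them those of growth factors, cytokines and immediate early transcription factors. Zfp36 (tristetraprolin) and its relatives Zfp36l1 and Zfp36l2 bind these elements through CCCH zinc fingers and recruit the CCR4-NOT deadenylase, which removes the poly(A) tail and starts decay. Khsrp (KSRP) also binds AU-rich elements and promotes decay, whereas Elavl1 (HuR) binds them and is known for protecting the mRNA. Btg1 and Btg2 are anti-proliferative proteins that bind the CCR4-NOT deadenylase itself; they are not known as AU-rich element binding proteins, and Btg2 is a target gene of p53.

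The 12 libraries are 3′-end poly(A) RNA sequencing of mouse cells of strain C57BL/6. There were Mettl3 knockout (KO) embryoid bodies (EBs), wild-type (WT) EBs, KO embryonic stem cells (ESCs) and WT ESCs, each taken 0, 4 and 8 h after actinomycin, which blocks transcription. ESCs were kept in serum-free N2B27 medium with LIF and the inhibitor pair 2i, and EBs, which are aggregates of differentiating cells, were grown from ESCs in serum medium. Mettl3 is the catalytic subunit of the enzyme that writes m6A on mRNA, a mark that can shorten mRNA lifetime. The labels give neither the deleted stretch of Mettl3 nor the number of clones, and do not say whether the 3 times of a condition came from 1 culture. Every group had 1 library, so p-values measure only the scatter of libraries around a line over time.

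Column totals of the deposited signal ranged from 6.25e+06 to 7.08e+06 in KO EBs, from 3.67e+06 to 8.31e+06 in WT EBs, from 1.04e+07 to 1.11e+07 in KO ESCs and from 1.01e+07 to 1.11e+07 in WT ESCs. The WT EB library of 8 h was the lowest. Steps in the values gave 208874 to 666805 read equivalents a library, an inference that no label states, and the 95% counting intervals below rest on them. In the EBs fractions of silent genes above 0 were also larger (34.0 to 36.2% in KO, 26.7 to 34.1% in WT) than in the ESCs (6.97 to 9.15% in KO, 6.69 to 9.51% in WT). Mettl3 read 16.8, 40.7 and 83.9 over the 3 times in EBs labelled KO, where the WT series read 175, 86.0 and 77.4. The KO ESC libraries gave 98.1, 65.4 and 41.8, and the WT ESC libraries 251, 64.8 and 113. Its KO level was not below WT in EBs at 8 h or in ESCs at 4 h. The KO values rest on 1.56 to 7.04 read equivalents a library, so single pairs are loosely determined. A 3′ tag outside the deleted stretch would check nothing, and the labels do not say where that stretch lies. The summed level of 6 pluripotency markers was 19562 to 26884 in KO EBs and 5964 to 28525 in WT EBs, against 32188 to 37951 in KO ESCs and 45420 to 55764 in WT ESCs. That of 12 endoderm and basement membrane markers was 1605 to 2038 in KO EBs and 18110 to 24143 in WT EBs, against 3795 to 4916 in KO ESCs and 4100 to 4635 in WT ESCs. The endoderm sum of each KO EB library was thus far below that of each WT EB library. In these bulk samples fewer cells of a type and less RNA per cell cannot be told apart.

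The mRNAs of these regulators carry AU-rich letters of their own. The heptamer TATTTAT, the core that Zfp36-type zinc fingers recognise, was searched on the mRNA strand of each 3′ UTR in GENCODE M21 transcripts on GRCm38. It occurs 3 times in Zfp36, 3 times in Zfp36l1, 3 times in Zfp36l2, 8 times in Elavl1 and 1 time in Btg2, and in none of the 3′ UTR of Khsrp or Btg1. Of 12394 tested genes with a 3′ UTR, 27.75% hold it. The 5 sites below, 1 for each gene that has any, are shown because Zfp36-type proteins are known to bind such letters. Capitals mark the heptamer, and letters are written 5′ to 3′ on the minus strand, as DNA.
Zfp36, chr7:28376952-28376978: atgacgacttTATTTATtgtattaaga
Zfp36l1, chr12:80108168-80108194: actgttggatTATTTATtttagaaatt
Zfp36l2, chr17:84184915-84184941: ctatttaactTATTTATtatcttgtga
Elavl1, chr8:4285781-4285807: attatttattTATTTATttatttttat
Btg2, chr1:134077250-134077276: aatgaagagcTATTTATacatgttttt

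The sites shown for the 3 Zfp36-type genes and for Elavl1 lie in the longer form TTATTTATT, and the Btg2 site does not. This form contains the heptamer and occurs in 7.221% of the 3′ UTRs. In each Zfp36-type gene only 1 of the 3 heptamers, the one shown, lies in it, and in Elavl1 all 8 do. In Elavl1 the 8 copies run into one another, apart from 1, and all lie in the last 500 bases, where 15.31% of 8594 3′ UTRs of that length or longer hold the heptamer. The Btg2 site begins 103 bases after the stop codon and far from the 3′ end. The pentamer ATTTA, which the heptamer contains, was found in all 7, from 1 copy in Khsrp to 17 in Elavl1, and in 66.24% of all 3′ UTRs. Btg1 has 11 copies of it. GGACT, a common core of m6A sites, was also found in all 7, from 1 copy in Zfp36 to 5 in Zfp36l1 and 5 in Btg1, against 59.4% of all 3′ UTRs. Lengths differ: the 3′ UTR has 774 bases in Zfp36, 1642 in Khsrp, 1822 in Zfp36l2, 1835 in Zfp36l1, 2199 in Btg2, 4166 in Btg1 and 4218 in Elavl1, where the median of all is 975.5. A match of letters is a description and not evidence of binding or methylation.

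Zfp36 (NM_011756; chromosome 7, 28376784 to 28379228, minus strand, GRCm38), the founding member of the zinc-finger family, was barely detected. Its levels at 0, 4 and 8 h were 44.4, 59.3 and 21.9 in KO EBs, while WT EBs had 196, 12.9 and 71.4. In KO ESCs they were 22.6, 0 and 39.7, against 68.0, 23.3 and 22.2 in WT ESCs. The WT EB library of 0 h alone exceeded the 99th percentile of genes that should be silent, and without that library the mean level of 48.4 would be 35.1, under the minimum of 42.9 for a test. Zfp36 thus passed the filter through 1 library, its values in the other 11 are at the level of background, and its tests are given only for completeness.

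Zfp36l1 (NM_007564; chromosome 12, 80107760 to 80113013, minus strand), a destabilising zinc-finger protein of the same family, had levels of 382, 296 and 307 in KO EBs at 0, 4 and 8 h, against 407, 150 and 39.0 in WT EBs. The EB genotypes were alike at 0 h, and only WT was low at 8 h. KO ESCs had 345, 884 and 502, against 906, 553 and 181 in WT ESCs. There the KO library was the lower at 0 h and the higher at 4 and 8 h. Averaged over the times the order was KO ESCs (577), WT ESCs (547), KO EBs (328) and WT EBs (199), and the ranges of each pair of neighbours overlap.

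Zfp36l2 (NM_001001806; chromosome 17, 84183924 to 84187947, minus strand), the third family member, had levels of 354, 223 and 56.8 in KO EBs, while WT EBs had 392, 56.3 and 95.3. KO ESCs had 222, 267 and 155, against 356, 36.6 and 66.1 in WT ESCs. The WT libraries were low at 4 h in both cell types, while the KO EBs reached a like level only at 8 h. The 4 condition means lay between 153 in WT ESCs and 215 in KO ESCs, with all ranges overlapping.

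Khsrp (NM_010613; chromosome 17, 57021049 to 57031507, minus strand), whose KH domains bind AU-rich RNA and promote its decay, was the most abundant of the 7 by 3′-end signal, which counts ends and so does not scale with length. Levels were 1521, 1442 and 1170 in KO EBs at 0, 4 and 8 h, against 1932, 1557 and 965 in WT EBs. KO ESCs had 3378, 2964 and 2554, against 3074, 3370 and 3683 in WT ESCs. All 6 EB libraries lay below all 6 ESC libraries. Within a cell type the ranges of the genotypes overlap.

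Btg1 (NM_007569; chromosome 10, 96617001 to 96622813, plus strand), an anti-proliferative partner of the deadenylase, had levels of 189, 128 and 96.1 in KO EBs, while WT EBs had 424, 60.2 and 30.3. KO ESCs had 189, 32.7 and 105, against 366, 0 and 0 in WT ESCs. A level of 0 allows up to 74.2 in WT ESCs at 4 h and 98.1 at 8 h (3 read equivalents a library), for counting error only; the exact 95% intervals behind the plot and the shares reach higher, to 91.3 and 121. In both cell types the KO value was the lower at 0 h and the higher at 4 and 8 h, with overlapping counting intervals in each pair. Neighbouring condition means, from 171 in WT EBs to 109 in KO ESCs, had overlapping ranges.

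Btg2 (NM_007570; chromosome 1, 134074865 to 134079155, minus strand), its relative and a p53 target, had levels of 534, 565 and 414 in KO EBs at 0, 4 and 8 h, against 552, 105 and 115 in WT EBs. KO ESCs had 602, 323 and 518, against 648, 165 and 151 in WT ESCs. At 0 h the genotypes were within 1 counting interval of each other in either cell type. The treated KO libraries were all above the treated WT libraries of the same cell type. The condition means were 504 in KO EBs, 481 in KO ESCs, 321 in WT ESCs and 257 in WT EBs, and neighbouring ranges overlap.

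Elavl1 (NM_010485; chromosome 8, 4284781 to 4325140, minus strand), which protects mRNAs with AU-rich elements, had levels of 1272, 676 and 786 in KO EBs, while WT EBs had 1155, 985 and 316. KO ESCs had 2759, 2286 and 2757, against 1536, 1980 and 2463 in WT ESCs. As for Khsrp, every EB library lay below every ESC library. The means were 2601 in KO ESCs, 1993 in WT ESCs, 912 in KO EBs and 819 in WT EBs, and only the step from WT ESCs to KO EBs had ranges that do not overlap.

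**Figure D1:**
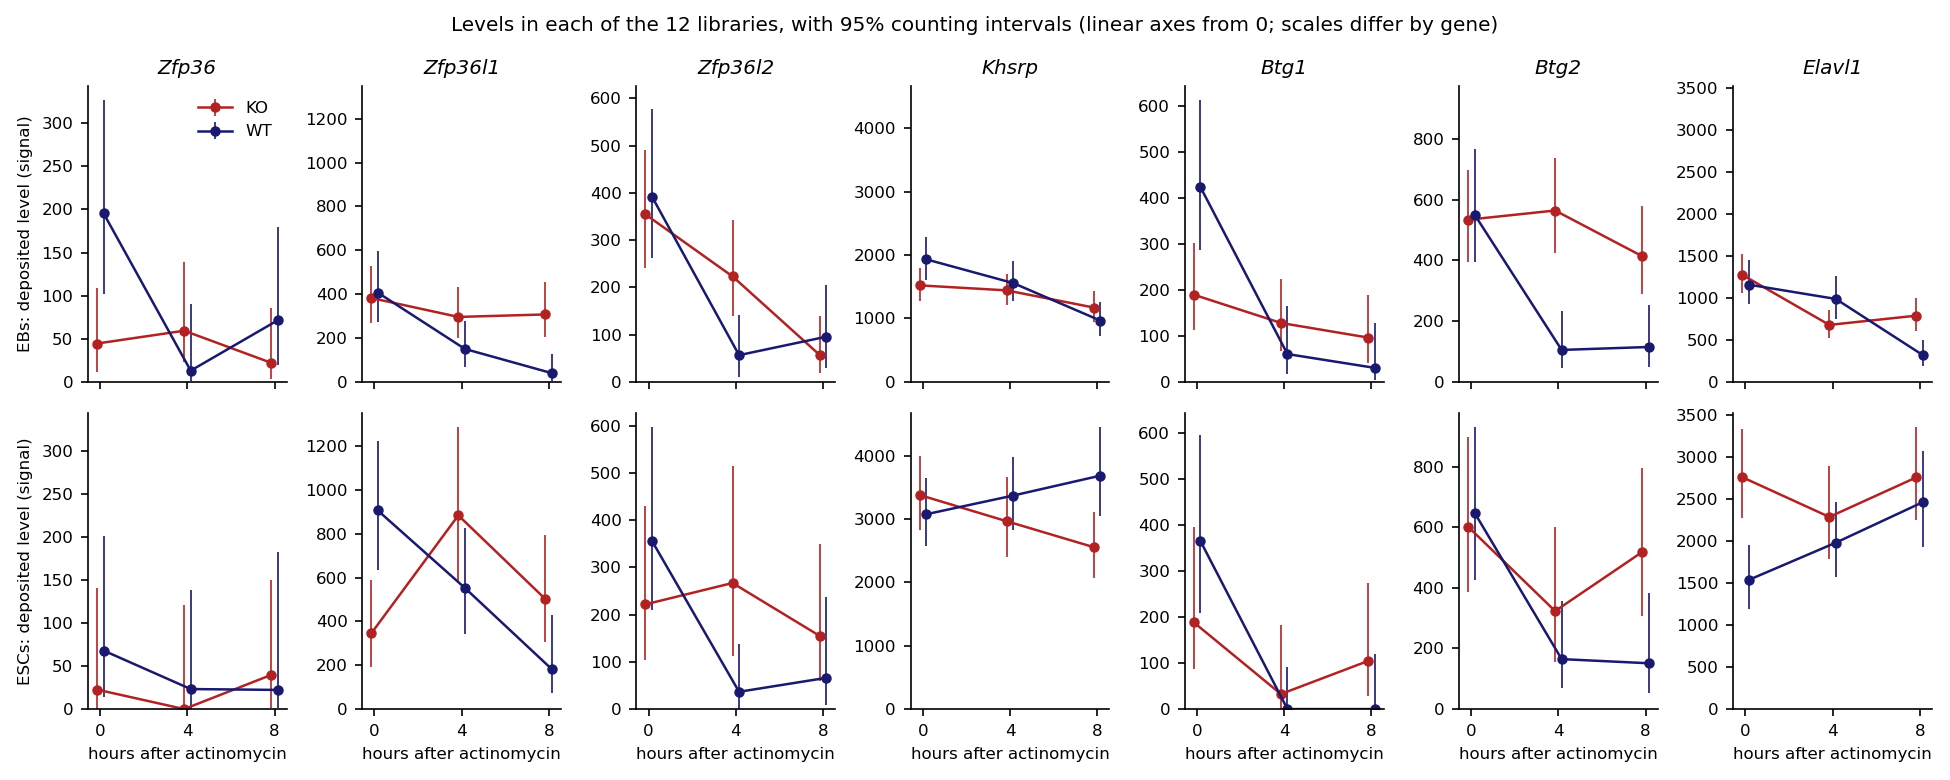
Deposited level (y axis, signal, linear from 0, scaled for each gene) of the 7 genes against hours after actinomycin, with EBs in the upper row and ESCs in the lower, KO in red and WT in dark blue. Each point is 1 library and each bar its 95% Poisson counting interval; in EBs the WT points of Btg2 lie at 105 and 115 at 4 and 8 h, under the KO points at 565 and 414.

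The first question is how fast the 7 mRNAs were lost once transcription was blocked. The mean slope over the 4 conditions was lower than 0 for Btg1, Zfp36l2, Zfp36l1 and Btg2 and did not pass the test for Zfp36, Elavl1 or Khsrp. That is 4 of 7 genes with a decline, where 21.4% of all 12704 genes tested were called lower. For Btg1 the slope was -0.33 ± 0.08 log2 per hour (SE; limma adjusted p 0.0089). Zfp36l2 had -0.23 ± 0.06 (limma adjusted p 0.018), Zfp36l1 -0.16 ± 0.04 (0.00751) and Btg2 -0.15 ± 0.04 (0.0257). The slopes of Zfp36 (-0.09 ± 0.10), Elavl1 (-0.06 ± 0.03) and Khsrp (-0.05 ± 0.02) had limma adjusted p-values of 0.581, 0.163 and 0.115, and the last pair lay near the median of all genes, -0.05. Rescaling the columns to equal totals or by median ratios ended the calls of Zfp36l1, Zfp36l2 and Btg2, and ribosomal protein scaling those of Zfp36l2 (adjusted p 0.0575) and Btg2 (0.0947). Without the variance trend Btg1 (0.0567), Zfp36l2 (0.0846) and Btg2 (0.102) missed the threshold, as did Btg2 with no filter (0.0534), and without both EB libraries of 8 h all 4 calls ended. Each of the 4 calls ended when either end of the KO EB series, its 0 h or its 8 h library, was left out. For Btg1, Btg2 and Zfp36l2 so did leaving out the 0 h library of WT EBs, KO ESCs or WT ESCs, and for Zfp36l2 also the KO ESC library of 8 h. For Zfp36l1 it was the 8 h library of WT EBs, KO ESCs or WT ESCs. Over the 12 fits without 1 library the slope ran between -0.50 and -0.16 for Btg1, -0.34 and -0.11 for Zfp36l2, -0.23 and -0.095 for Zfp36l1, and -0.23 and -0.074 for Btg2.

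**Figure D2:**
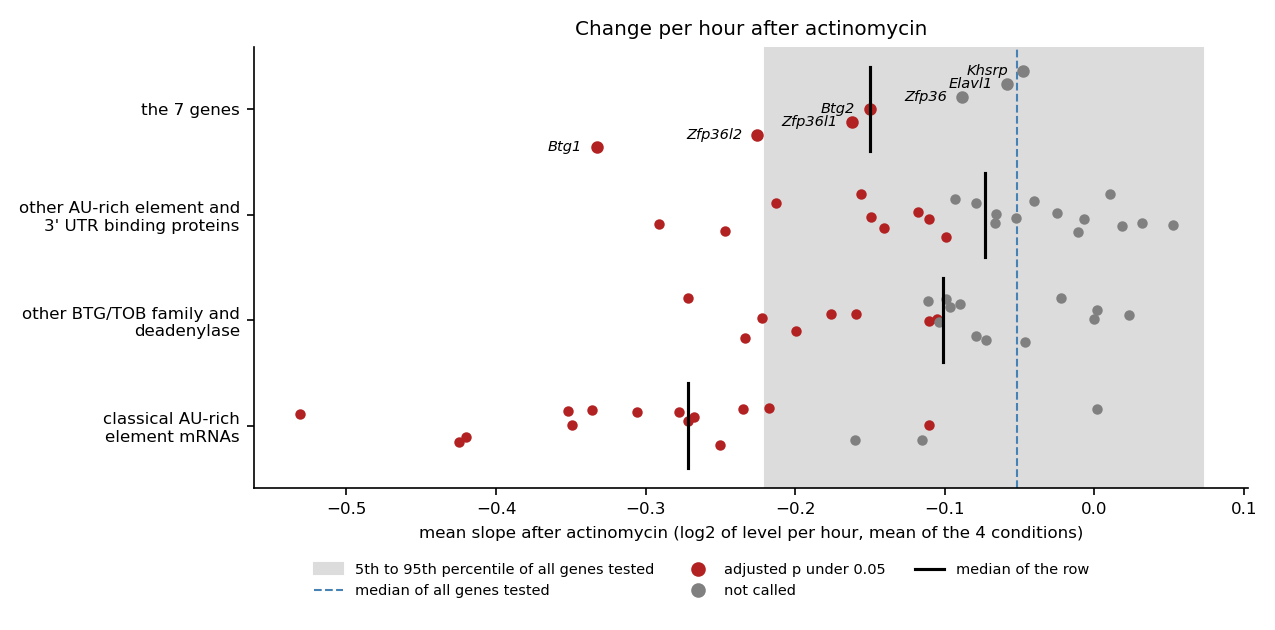
Mean slope after actinomycin (x axis, log2 of level per hour) of the 7 genes and of 3 lists of related genes, 1 point a gene, red where limma's adjusted p was under 0.05 and grey where it was not. The black bar is the median of a row, the dashed line the median of all genes tested (-0.05) and the grey band their 5th to 95th percentile (-0.22 to 0.07); Btg1 and Zfp36l2 lie left of the band.

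Related genes were counted in 3 lists, which were chosen with earlier results of these data known. Of all genes tested 21.4% were called lower and 0.236% higher. Of 17 tested classical AU-rich element mRNAs, 14 declined and 0 rose, with a median slope of -0.27. Pim3, a kinase gene, had -0.53 ± 0.05, Dusp1, a phosphatase gene, -0.42 ± 0.05, and Mycn, a transcription factor gene, -0.42 ± 0.04 (limma adjusted p 1.77e-05, 8.47e-05 and 1.67e-05). Of 22 other AU-rich element and 3′ UTR binding proteins 9 declined and 0 rose (median -0.07), among them Pum2, which encodes an mRNA-binding repressor (-0.25 ± 0.03). Of 20 other BTG/TOB family members and components of the deadenylase 8 declined and 0 rose (median -0.10). Cnot2, a subunit of CCR4-NOT, had -0.27 ± 0.04, and Tob1 and Tob2, relatives of Btg1 and Btg2, had -0.20 ± 0.06 and -0.23 ± 0.05.

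In WT cells most of the loss of Btg1, Btg2 and Zfp36l2 had taken place by 4 h. None of the treated WT levels of Btg1 and Zfp36l2 was above the 99th percentile of genes that should be silent. Nor were those of Btg2 and Zfp36l1 in WT EBs at 8 h. For these levels the change from 4 to 8 h is poorly determined. The share of the 0 h level left at 4 h was 19.0% for Btg2 in WT EBs and 25.4% in WT ESCs, and at 8 h it was 20.8% and 23.3%. Zfp36l2 had 14.4% and 10.3% left at 4 h and 24.3% and 18.5% at 8 h in the same order of cells. Btg1 had 14.2% left at 4 h and 7.14% at 8 h in WT EBs, and 0% at both times in WT ESCs, with 95% upper bounds of 27.9% and 36.9%. Zfp36l1 declined more evenly, to 36.8% at 4 h and 9.60% at 8 h in WT EBs and to 61.0% and 20.0% in WT ESCs. The median gene had 68.8% left at 4 h and 46.0% at 8 h in WT EBs, and 79.8% and 71.2% in WT ESCs. All 16 of these WT shares were under the median gene's. These genes were the ones called for a decline in the same libraries, so this count is no added evidence. Among the genes not called, Elavl1 and Khsrp had WT shares above the median gene's, except Elavl1 in EBs at 8 h (27.3%). Those of Zfp36, mostly at background, were under it.

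The second question is whether loss of Mettl3 changed how much was left. For Btg2 the share left at 4 h was 106% in KO EBs (95% counting interval 70.9 to 160) against 19.0% in WT EBs (7.60 to 45.7). At 8 h it was 77.5% in KO EBs (49.6 to 124) against 20.8% in WT EBs (8.30 to 49.9). In ESCs it was 53.7% in KO (23.1 to 118) against 25.4% in WT (9.94 to 63.1) at 4 h, and 86.1% in KO (43.7 to 161) against 23.3% in WT (7.67 to 66.7) at 8 h. KO was higher in all 4 pairs, and the intervals are apart only for the EBs of 4 h.

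For Btg1 the shares were 67.5% in KO EBs against 14.2% in WT EBs at 4 h and 50.8% against 7.14% at 8 h. KO ESCs had 17.3% at 4 h and 55.5% at 8 h, against 0% in WT ESCs at both times. With the 3 other scalings the EB shares at 8 h were 48.6 to 62.9% in KO and 15.4 to 16.8% in WT. The direction is that of Btg2, but all 4 pairs of intervals overlap. At 4 and 8 h the values rest on 12.0 and 8.06 read equivalents in KO EBs, 3.74 and 1.72 in WT EBs, 1.00 and 3.90 in KO ESCs, and 0 in WT ESCs.

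Zfp36l1 had 77.4% left in KO EBs against 36.8% in WT EBs at 4 h. At 8 h it had 80.4% in KO EBs (47.0 to 138) against 9.60% in WT EBs (0.986 to 33.9). In ESCs it had 256% in KO (127 to 518) against 61.0% in WT (34.3 to 105) at 4 h, and 145% in KO (68.8 to 312) against 20.0% in WT (7.59 to 52.1) at 8 h. On the deposited scaling the last 3 of these pairs have intervals that do not overlap. Under the 3 other scalings the EB shares at 8 h were 76.9 to 99.5% in KO and 20.7 to 22.6% in WT. Intervals scaled alike then overlap for that EB pair. The KO ESC shares stand on a 0 h level of 345, against 906 in WT ESCs, so that they combine a lower starting library with higher later ones.

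Zfp36l2 was mixed. At 4 h it had 63.0% left in KO EBs against 14.4% in WT EBs, and 120% in KO ESCs against 10.3% in WT ESCs. At 8 h it had 69.9% in KO ESCs against 18.5% in WT ESCs, but 16.0% in KO EBs against 24.3% in WT EBs. Each pair of intervals overlaps. The EB levels at 8 h rest on 4.76 read equivalents in KO and 5.42 in WT. Neither was above the 99th percentile of genes that should be silent, so the order of that pair is poorly determined. The WT levels of the other pairs were not above it either.

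The 2 abundant genes did not share the pattern of Btg2. Elavl1 had 53.1% left in KO EBs against 85.3% in WT EBs at 4 h and 61.8% against 27.3% at 8 h. KO ESCs had 82.9% at 4 h and 99.9% at 8 h, against 129% and 160% in WT ESCs. Khsrp had 94.8% left in KO EBs against 80.6% in WT EBs at 4 h and 77.0% against 49.9% at 8 h. KO ESCs had 87.7% at 4 h and 75.6% at 8 h, against 110% and 120% in WT ESCs, so its KO share was the higher in EBs and the lower in ESCs. Under the 3 other scalings of the columns the share of Khsrp left in WT EBs at 8 h was 108 to 118%, and that of Elavl1 58.9 to 64.4%, so the EB values of these genes follow the scaling.

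Zfp36 gave shares of 134% in KO EBs against 6.58% in WT EBs at 4 h and 49.5% against 36.5% at 8 h. In KO ESCs they were 0% and 175%, against 34.2% and 32.7% in WT ESCs. With 0 to 13.3 read equivalents a library these shares carry little information.

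Counted over the 7 genes, the KO share was higher in 6 in EBs at 4 h and in 6 at 8 h, where 68.0% and 73.0% of all genes had a higher KO share. In ESCs it was higher in 4 genes at 4 h and 5 at 8 h, where 59.8% and 64.4% of all genes did. With 7 genes, counts this near to all genes are not read as a property of the group. The 3 other scalings took the EB counts to 5 at 4 h and to 3 or 4 at 8 h, with 49.1 to 51.2% and 32.2 to 49.9% of all genes, and left the ESC counts as they were. Btg1, Btg2 and Zfp36l1, singled out after their values were seen, had a higher KO share at both times in both cell types under all 4 scalings.

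**Figure D3:**
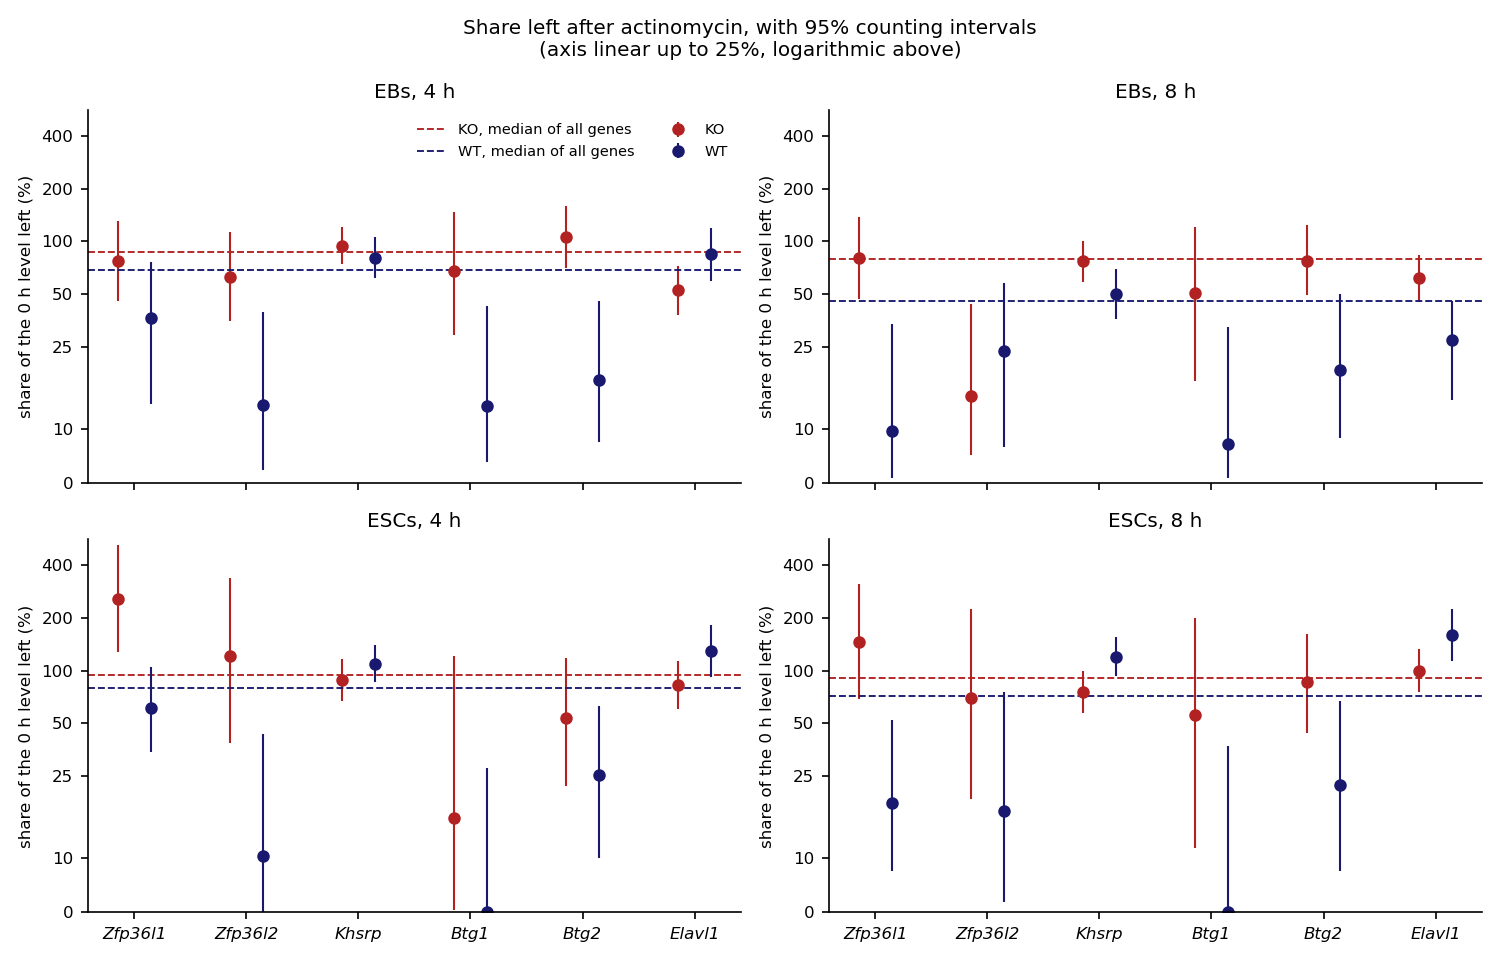
Share of the 0 h level left (y axis, percent, linear to 25 and logarithmic above) at 4 and 8 h in EBs (upper row) and ESCs (lower row), KO in red left of WT in dark blue, with 95% counting intervals and dashed lines at the median of all genes. Zfp36 is left out for its low counts; the KO points of Btg1, Btg2 and Zfp36l1 lie above the WT points in every panel, and those of Elavl1 only in EBs at 8 h.

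As a test of the same question, the KO slope was compared with the WT slope. In EBs 0 of the 7 genes were called, where 1.19% of all genes were called higher and 0% lower. The differences were 0.35 ± 0.11 log2 per hour for Zfp36l1 (limma adjusted p 0.109), 0.32 ± 0.23 for Btg1 (0.569) and 0.23 ± 0.13 for Btg2 (0.405). Elavl1 had 0.14 ± 0.08, Khsrp 0.08 ± 0.06, Zfp36 0.07 ± 0.27 and Zfp36l2 -0.07 ± 0.18, with limma adjusted p-values from 0.398 to 0.959. In ESCs 0 of 7 were called as well, where 0.0394% of all genes, 5 in number, were called higher. Btg1 had 0.58 ± 0.23 (limma adjusted p 0.398), Zfp36l1 0.35 ± 0.11 (0.257), Zfp36 0.24 ± 0.27 (0.826), Btg2 0.23 ± 0.13 (0.596) and Zfp36l2 0.22 ± 0.18 (0.738). Khsrp and Elavl1 had -0.08 ± 0.06 and -0.08 ± 0.08 (0.685 and 0.785). The unadjusted p for Zfp36l1 was 0.00544 in EBs and 0.00569 in ESCs, that for Btg1 in ESCs was 0.0236, and the other 11 were above 0.05. With a stricter filter of 20 ppm in place of 5 ppm, Zfp36l1 passed in EBs (adjusted p 0.0458), but it did not pass in the other 8 settings or in any of the 12 fits without 1 library. Its ESC value ran from 0.082 to 0.62 over those 12 fits. Among related genes Pcbp1, which encodes a poly(C)-binding protein, passed in EBs (0.26 ± 0.05, limma adjusted p 0.0347), as did the p53 targets Aen and Bax (0.46 ± 0.10 and 0.22 ± 0.05). The calls of Pcbp1, Aen and Bax ended with equal column totals, median ratios or no variance trend, where 0 of all genes were called. In neither cell type did any of the 17 classical AU-rich element mRNAs or the 20 BTG/TOB and deadenylase genes pass.

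The third question is whether levels over the 3 times differed between KO and WT. In EBs Zfp36l1 was higher in KO by a log2 of 1.19 ± 0.35 (limma adjusted p 0.0471) and was the 1 gene of 7 called, where 7.66% of all genes were called higher and 1.56% lower. A single call among 7 genes is not read as a property of the group. At 0, 4 and 8 h the difference was -0.09, 0.94 and 2.73. The 8 h value is poorly determined, since it is set against a WT EB level of 39.0, which is 2.22 read equivalents and not above the 99th percentile of genes that should be silent. On the deposited scaling that pair's counting intervals, 203 to 454 in KO EBs and 4.26 to 127 in WT EBs, do not overlap. The call ended in 8 of 10 alternative settings (adjusted p up to 0.824) and without any 1 of the 6 EB libraries or the WT ESC library of 4 h, with values of 1.06 to 1.26. Of 6 pluripotency markers 5 were higher in KO EBs as well, and Pou5f1 did not pass (0.39, limma adjusted p 0.137). Their summed level was 26884, 24603 and 19562 in KO EBs at 0, 4 and 8 h, while WT EBs had 28525, 15123 and 5964. Nanog was higher in KO EBs by 2.33 ± 0.23 and Esrrb by 1.89 ± 0.25, and 8 of 9 tested endoderm and basement membrane markers were lower, with Ttr at -6.15 ± 0.56 (limma adjusted p 1.48e-05, 0.000206 and 9.28e-06). These marker differences are means over the 3 times. At 0 h Nanog read 2542 in KO EBs against 963 in WT EBs, Zfp42 2877 against 1717 and Sox2 2675 against 2007. Esrrb read 1771 in KO EBs against 1852 in WT EBs at 0 h, and Utf1 5954 against 7459, so neither was then higher in KO. The part of the markers in the Zfp36l1 difference was not tested.

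Btg2 was higher in KO EBs by 1.36 ± 0.41 (95% interval 0.48 to 2.24), which missed the threshold (limma adjusted p 0.0532). By time the differences were -0.04, 2.34 and 1.78. It passed in 3 of 10 other settings, which were the stricter filter (0.0184), a pseudocount of 5 ppm (0.0424) and subtraction of background (0.0332), and missed in the other 7 (adjusted p up to 0.265). It passed in 5 of 12 fits without 1 library, those without the WT EB library of 0 h or 8 h or any WT ESC library, with values of 0.95 to 2.16 over the 12. The remaining genes differed by 0.43 ± 0.75 (Btg1), 0.34 ± 0.58 (Zfp36l2), 0.30 ± 0.26 (Elavl1), -0.06 ± 0.19 (Khsrp) and -0.56 ± 0.89 (Zfp36), with limma adjusted p-values from 0.613 to 0.924. The interval for Khsrp, -0.46 to 0.34, was the narrowest, and that for Zfp36, -2.46 to 1.34, the widest.

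In ESCs 0 of the 7 genes were called, where 10.9% of all genes were called higher and 3.27% lower. Btg1 had the largest difference, 1.69 ± 0.75 (interval 0.08 to 3.29, limma adjusted p 0.158, unadjusted 0.0406). By time it was -0.93, 2.27 and 3.72. With WT ESCs at 0 the 4 and 8 h values depend on the pseudocount, and the counting intervals of KO and WT overlap at both times, so a difference there was not detectable at this depth. Other settings gave 0.59 to 1.69 for the mean over the times, none of them called. Leaving out the WT ESC library of 0 h or that of 8 h let Btg1 pass the test, and values without 1 library were 0.45 to 3.50. Zfp36l2 had 1.03 ± 0.58, Btg2 0.85 ± 0.41, Elavl1 0.40 ± 0.26, Zfp36l1 0.24 ± 0.35, Khsrp -0.19 ± 0.19 and Zfp36 -0.85 ± 0.89, with limma adjusted p-values from 0.196 to 0.714. The medians of the 7 genes were 0.34 in EBs and 0.40 in ESCs, beside 0.09 and 0.18 for all genes.

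A test of the difference between the EB and ESC effects called 0 of the 7, where 2.86% of all genes were called in either direction. The unadjusted p was above 0.05 for each. Zfp36l1 came nearest, with a difference of 0.95 ± 0.50 (limma adjusted p 0.377), so its call in EBs is not shown to be particular to EBs.

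**Figure D4:**
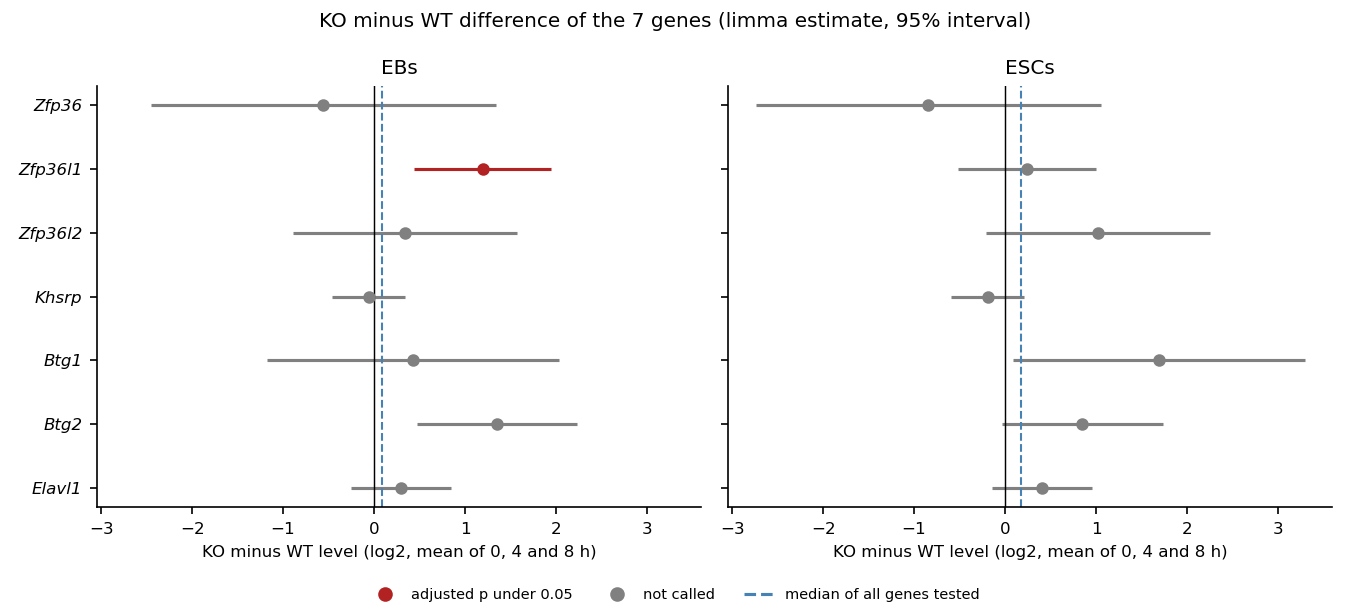
KO minus WT difference in level (x axis, log2, mean over 0, 4 and 8 h) in EBs and ESCs, with limma's 95% interval for each gene, red where the adjusted p was under 0.05. Zfp36l1 in EBs (1.19) is the red point, Btg1 in ESCs (1.69) is the largest difference, and dashed lines give the median of all genes tested (0.09 in EBs, 0.18 in ESCs).

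Related genes were set beside these from 4 lists, again by the mean level over 0, 4 and 8 h. Of all genes 7.66% were called higher and 1.56% lower in KO EBs, and 10.9% and 3.27% in KO ESCs. Of the 22 other AU-rich element and 3′ UTR binding proteins 1 was higher and 1 lower in KO in each cell type, and they were the same genes. Pcbp1 was higher by 0.69 ± 0.16 in EBs and 0.57 ± 0.16 in ESCs, and Igf2bp3, which encodes an IGF2 mRNA-binding protein, was lower (-1.39 ± 0.34 and -1.57 ± 0.34; limma adjusted p 0.0147, 0.0306, 0.0179 and 0.00694). Among the 20 BTG/TOB and deadenylase genes Cnot8, a catalytic subunit of CCR4-NOT, was higher in KO EBs (1.15 ± 0.33, limma adjusted p 0.0393). In ESCs 0 were called. At 0 h Cnot8 read 950 in KO EBs against 1082 in WT EBs, and Pcbp1 4701 against 6267. Pcbp1 in ESCs had 9438 in KO against 7659 in WT at 0 h. Igf2bp3 was lower in KO at 0 h in both cell types.

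Of the 17 classical AU-rich element mRNAs 3 were higher and 0 lower in KO EBs, and 6 were higher and 0 lower in KO ESCs. Their medians were 0.04 in EBs and 0.71 in ESCs. Mycn was higher by 1.55 ± 0.37 in EBs and 3.73 ± 0.37 in ESCs (limma adjusted p 0.0157 and 1.72e-05). Mcl1, a survival gene of the BCL2 family, was higher by 1.94 ± 0.42 and 1.52 ± 0.42 (limma adjusted p 0.00846 and 0.0253). In ESCs at 0 h Mcl1 read 2144 in KO against 2902 in WT, and Mycn 2687 against 1296. At 4 and 8 h Mcl1 read 1756 and 2145 in KO ESCs against 306 and 368 in WT ESCs. Mycn then had 2417 and 1264 against 72.8 and 24.9. In EBs at 0 h Mcl1 had 2674 in KO against 1937 in WT, and Mycn 1298 against 896. Jun and Dusp1, both immediate early genes, passed in ESCs (2.92 ± 0.59 and 2.17 ± 0.47). Jun read 207, 126 and 51.5 in KO ESCs at 0, 4 and 8 h, against 45.5, 0 and 0 in WT ESCs. Its WT ESC value at 0 h was under 89.8, the 99th percentile of genes that should be silent. Dusp1 read 734, 153 and 85.8 in KO ESCs, against 464, 22.3 and 0 in WT ESCs. With WT values of 0 these differences depend on the pseudocount. The difference between the cell types passed for Jun and Mycn (limma adjusted p 0.0313 and 0.0373). For Jun it rests on the same WT ESC values.

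Btg2 itself was not called in either cell type. Of 12 other p53 targets 6 were called higher in KO EBs and 7 in KO ESCs, and 0 were lower. Of all genes 7.66% were called higher in EBs and 10.9% in ESCs. Phlda3, an inhibitor of Akt signalling, was higher by 1.87 ± 0.25 in EBs and 2.00 ± 0.25 in ESCs (limma adjusted p 0.000197 and 0.000122). At 0 h Phlda3 read 1859 in KO ESCs against 1555 in WT ESCs, and 1791 in KO EBs against 905 in WT EBs. At 4 and 8 h it read 2280 and 1985 in KO ESCs against 396 and 201 in WT ESCs. Sesn2, also called higher in ESCs, read 1863 in KO against 2008 in WT at 0 h. Mdm2, the ubiquitin ligase of p53, was higher by 1.45 ± 0.33 and 1.10 ± 0.33 (0.0117 and 0.0373). Cdkn1a, which stands in this list and among the AU-rich element mRNAs, passed in ESCs (1.52 ± 0.47, 0.0433). The list was chosen with results of these libraries known, so its counts are no independent evidence.

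The fourth question is how levels over the 3 times differed between ESCs and EBs. Elavl1 was lower in EBs by a log2 of -1.50 ± 0.18, Zfp36l1 by -1.18 ± 0.25 and Khsrp by -1.17 ± 0.13 (limma adjusted p 1.91e-05, 0.00153 and 1.09e-05). That is 3 of 7 lower, where 40.5% of all genes were called lower and 3.06% higher, so the count is near that of all genes. The median of all genes was -0.55 on this scale. These differences average untreated and actinomycin-treated libraries. At 0 h Elavl1 had -1.11 in KO and -0.41 in WT, and Khsrp had -1.15 and -0.67. Zfp36l1 had 0.14 in KO and -1.14 in WT at 0 h. The median of all genes at 0 h was -0.53 in KO and -0.29 in WT. By 8 h the Elavl1 difference in WT was -2.93. The difference between untreated EBs and ESCs was not tested. Elavl1 and Khsrp kept their calls under the 3 other scalings, at -0.86 to -0.71 and -0.53 to -0.37, and in all 12 fits without 1 library. Zfp36l1 lost its call under each of the 3 scalings, at -0.57 to -0.42, and kept it in the 12 fits without 1 library.

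Btg1 had the opposite sign, 1.17 ± 0.53 (limma adjusted p 0.0891), and passed with equal column totals (1.79) or median ratios (1.73). It missed in the other 7 settings and in 8 of 12 fits without 1 library, over which it ran from 0.71 to 2.08. At 0 h the Btg1 difference was 0.0054 in KO and 0.21 in WT. Zfp36 had 0.88 ± 0.63, Zfp36l2 0.04 ± 0.41 and Btg2 -0.15 ± 0.29, with adjusted p-values from 0.273 to 0.952. For Btg2 the sign was positive under the 3 other scalings. In EBs 40.5% of all genes were called lower. Of the other lists 14 of 22 binding proteins and 11 of 20 BTG/TOB and deadenylase genes were lower in EBs and 0 were higher. Igf2bp1 (-1.65 ± 0.17), Ybx1 (-1.29 ± 0.13), Cnot1, the CCR4-NOT scaffold (-1.30 ± 0.19), and Pabpc1, the poly(A)-binding protein (-1.14 ± 0.10), were among them (limma adjusted p 5.28e-06, 4.77e-06, 7.83e-05 and 1.63e-06).

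The levels of some of the 7 genes followed each other over the 12 libraries. Pearson's r of log2 levels was 0.91 between Elavl1 and Khsrp, 0.77 between Btg1 and Btg2, 0.76 between Zfp36l2 and Btg1, and 0.76 between Zfp36l2 and Btg2. Between Khsrp and Btg1 it was -0.25. These points share conditions, depth and scaling, so r is a description. The genes most like Btg2 were Zfp335 (0.96), Mcl1 (0.94) and Cebpb (0.94), and those most like Btg1 were Tbl2 (0.94), Ier2 (0.93) and Klf6 (0.93), out of 6486 or 6487 genes with a mean level over 172. Zfyve19, Esrrb and Cggbp1 were most like Zfp36l1 (each 0.96). Cited2 (0.93), Pagr1a (0.91) and Med7 (0.91) were most like Zfp36l2. For Elavl1 the list was Ppp6c (0.96), Rpe (0.96) and Dcakd (0.96), and for Khsrp it was Hlcs (0.99), Prmt1 (0.98) and Bop1 (0.98). Zfp36 had no close match, with H2ac18 (0.72), Phlda1 (0.71) and Proser1 (0.69) nearest.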

How the data were processed

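The authors deposited normalized levels per RefSeq transcript, a signal never below 0, for 12 libraries of 3′-end RNA sequencing. Per the submitters' processing notes, the tools were Bowtie, Bowtie2 2.1.0 and CASAVA 1.8.2, with build mm10; the counting and scaling of the deposited signal are not given in the sources used here. Column totals differ 3.02-fold, so they had not been made equal. At least 99.8% of values under 100 are whole multiples of a step (within 0.1 step), and 50 steps were taken as 1 read. Exact 95% intervals on these read equivalents cover counting error only. In EBs low values of several reads were about as common as single reads, so EB intervals may be too narrow.

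Of 19746 entries, 19535 were matched to symbols in RefSeq on GRCm38.p6 and 98 in GENCODE M21; 38 duplicates were dropped. A pseudocount of 8.58 (1 ppm of an average column) was added to each level before taking log2, which understates differences of low genes, and limma 3.58.1 (R 4.3.3) was run on the 12704 entries whose mean level was 42.9 (5 ppm) or more. Each of the 4 conditions had a line over hours, 8 coefficients in all, leaving 4 residual degrees of freedom and a trended variance prior worth 11.1 more. A level is that of the line at 4 h, the mean of the 3 times; a slope is log2 per hour, relative to the deposited scaling. Adjusted p-values are Benjamini-Hochberg over all entries tested, with a threshold of 0.05. Share left is the level at 4 or 8 h as a percent of that at 0 h in the same condition. The fit was tested on simulated data.

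All 7 members are named in every comparison; list genes are the called ones largest in size, up to 6 a list. The most alike genes are the 3 with the highest Pearson's r among entries with a mean of at least 20 ppm. The members and lists were chosen with earlier results of these data known. Elavl3 and Cnot11 were not matched in the table. Alternatives were 3 scalings, another pseudocount, no filter or a stricter filter, no variance trend, shared time terms, each library left out, both EB libraries of 8 h left out and, added after seeing the data, subtraction of the mean level of 1420 silent-family genes (defensins, keratin-associated proteins and chemosensory receptors).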

Additional observations from a re-analysis of the deposited data

Results flagged for a closer look

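Khsrp, the decay-promoting KH-domain protein, had opposite signs in the 2 cell types when the share left after actinomycin was set between genotypes. Averaged over 4 and 8 h, the KO share was above the WT share by 20.6 percentage points in EBs, and the KO minus WT difference was -33.0 percentage points in ESCs, with the same sign at both times in each. The EB sign holds on the deposited scaling alone: with equal column totals the EB shares at 4 and 8 h were 97.5% and 87.1% in KO, against 111% and 113% in WT, and the KO share was the lower at both times with median ratios and ribosomal protein scaling too. In ESCs it was the lower under all 4 scalings. The difference between the cell types was not tested on shares. The limma slope differences were 0.08 ± 0.06 in EBs and -0.08 ± 0.06 log2 per hour in ESCs (adjusted p 0.585 and 0.685), and the EB value was negative under equal column totals, median ratios and ribosomal protein scaling.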

How the results depend on the processing

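Pairing by replicate was not possible because each group had 1 library and so no replicate numbers to pair. KO and WT of the same time are set together in the fit with shared time terms. Also, the entries of a gene could not be summed because each member had 1. Counts of genes called moved as follows. The main fit tested 12704 entries, and the number tested differed where the filter, the scaling or the libraries changed. EB minus ESC levels (5538) had 2977 with equal column totals, 2577 with median ratios, 2714 with ribosomal protein scaling, 2759 without the EB libraries of 8 h and 3660 to 5656 without 1 library. KO minus WT levels in EBs (1171) had 503 with shared time terms, 353 without the variance trend, 121 without the EB libraries of 8 h and 248 to 1247 without 1 library. In ESCs (1797) they had 1142, 1047 and, without 1 library, 729 to 1794. The difference between cell types (363) had 159, 63 and 41 in the EB order of settings, 204 with no filter and 96 to 403 without 1 library. The mean slope (2753) had 1321, 1052 and 1636 with equal totals, median ratios and no trend, 627 without the EB libraries of 8 h and 916 to 3022 without 1 library. KO minus WT slopes in EBs (151) had 349 after background subtraction, 701 at 20 ppm, 4 with no filter, 5 with ribosomal protein scaling, 0 in the fits with equal totals, median ratios, no trend or no EB libraries of 8 h, and 0 to 442 without 1 library. In ESCs (5) they had 59 at 20 ppm, 1 with equal totals, ribosomal protein scaling or the larger pseudocount, 0 with median ratios, no filter, no trend or no EB libraries of 8 h, and 0 to 10 without 1 library.

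Signs of members that were not called turned round in these fits (log2). With equal totals Zfp36 had -0.0055 and Khsrp -0.089 when the EB effect was set against the ESC effect, and -0.053 and -0.047 as EB slope differences, and Btg2 0.62 for EB minus ESC. With median ratios the EB slope differences of Zfp36 and Khsrp were -0.031 and -0.022, the mean slopes of Elavl1 and Khsrp 0.0019 and 0.013, and Btg2 had 0.51. With ribosomal protein scaling Zfp36 had -0.21 and Khsrp -0.39 for the EB against the ESC effect, and -0.083 and -0.084 as EB slope differences. Elavl1 then had -0.11 for the EB level and -0.015 for the EB slope difference, Zfp36l2 -0.042 for the EB level and Btg2 0.46. The larger pseudocount gave Zfp36 -0.12 for the EB against the ESC effect, and background subtraction gave Zfp36l2 -0.054 for EB minus ESC. Without the EB libraries of 8 h Zfp36 had 1.66 and Elavl1 -0.54 for the EB level, Elavl1 -0.17 and Zfp36l2 0.49 for the EB slope difference, and Zfp36l2 0.81 for the EB against the ESC effect and -0.32 for EB minus ESC. Leaving out 1 library gave these ranges. EB level: Zfp36 -1.42 to 1.16, Zfp36l2 -0.21 to 1.44, Elavl1 -0.16 to 0.53, Khsrp -0.18 to 0.015. ESC level: Zfp36l1 -0.12 to 0.96. EB against ESC effect: Zfp36 -0.57 to 2.00, Zfp36l2 -1.93 to 0.42, Elavl1 -0.57 to 0.13, Btg2 -0.096 to 1.31. EB minus ESC: Zfp36l2 -0.51 to 0.66, Btg2 -0.56 to 0.15. EB slope difference: Zfp36 -0.12 to 0.71, Zfp36l2 -0.48 to 0.35, Elavl1 -0.029 to 0.32, Btg2 -0.075 to 0.53. ESC slope difference: Zfp36 -0.30 to 0.79, Zfp36l2 -0.24 to 0.69, Btg1 -0.10 to 1.26. Mean slope: Zfp36 -0.25 to 0.048. Where a 0 or 8 h library is left out, the level of that condition is the 4 h library's alone. Calls of members that ended are given in the report, the cause was not tested, and no called member changed sign. Btg1 and Zfp36 have no value at 20 ppm, being under that filter. Depth limits Zfp36, Btg1 and Zfp36l2, with 0 to 33.4 read equivalents a library.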
